A study of Mus musculus with 6 samples.

Results

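Chemokine ligand genes encode small secreted proteins, and a pair of membrane-bound ones, that direct the movement of leukocytes and other cells through G protein-coupled receptors. They were taken from the deposited gene table as every protein-coding row whose symbol begins with Ccl, Cxcl, Cx3cl or Xcl followed by a digit. This gave 44 of 54532 rows, with 38 distinct symbols, because 7 of the rows lie on unplaced scaffolds and are copies of the duplicated Ccl19, Ccl21 and Ccl27 genes. Another 3 chemokine symbols are annotated with a different biotype and were not members, Cxcl11 among them. The members were chosen by name and not by any measured value.

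RNA was sequenced from whole ear skin of mice aged 3 months. The Ufl1 cKO group had 3 libraries with the genotype Ufl1f/f KRT14Cre/+, in which floxed alleles of Ufl1, the E3 ligase that attaches the small modifier UFM1 to its targets, are joined to a Cre under a keratin 14 promoter. The control group had 3 libraries with the genotype Ufl1f/+ or Ufl1f/f, with no Cre listed, and the labels do not say which control carries which. Both groups therefore carry at least 1 floxed allele, and Cre and the loss of Ufl1 cannot be told apart. Keratin 14 is expressed in basal keratinocytes, so fibroblasts, vessels and immune cells in the same tissue are not targeted directly and contribute to every value. The labels do not state that the libraries came from separate animals, so the p-values measure only the spread between these samples.

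Inflammatory chemokines are made on demand, by keratinocytes, macrophages, endothelium and fibroblasts alike, after signals such as interleukin-1, tumour necrosis factor and interferons that act through NF-kB and STAT proteins. Homeostatic chemokines are made continuously and place cells within a tissue or guide them to lymphatic vessels. In skin, CXCR2 ligands attract neutrophils, CXCR3 ligands attract activated T and NK cells, CCR2 ligands attract monocytes, and CCR4 and CCR10 ligands are known for homing of T cells to skin.

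Total counts were 18245575, 18212929 and 19050876 in cKO 1 to 3, against 17256339, 18886858 and 20776539 in control 1 to 3. At these depths a count of 0 allows a level of up to 0.157 to 0.167 CPM (counts scaled to a common library size with TMM factors) in the cKO libraries and 0.142 to 0.179 CPM in the controls, taking 3 counts as the limit and covering counting error only. Ufl1 was at 34.9, 35.6 and 38.8 CPM in cKO 1 to 3, against 57.9, 47.0 and 46.1 CPM in control 1 to 3. Every cKO library was lower than every control, at a log2 fold change of -0.47 (SE 0.14), for which the edgeR quasi-likelihood test with Benjamini-Hochberg adjustment gave an adjusted p of 0.778. The count covers the whole gene and all cell types. All log2 fold changes are cKO over control.

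The 5 promoters shown here belong to the CXCR2 and CXCR3 ligand genes, Cxcl5 excepted, whose values by library are described further on, and were picked after those values had been seen. Each sequence is the 250 bases before the RefSeq transcription start on GRCm38.p6, read 5′ to 3′ on the strand of the gene. Capitals mark matches to the NF-kB consensus motif or to the core of the interferon-stimulated response element, GAAANNGAA, both searched on either strand.
Cxcl1 (chr5:90890995-90891244, plus strand): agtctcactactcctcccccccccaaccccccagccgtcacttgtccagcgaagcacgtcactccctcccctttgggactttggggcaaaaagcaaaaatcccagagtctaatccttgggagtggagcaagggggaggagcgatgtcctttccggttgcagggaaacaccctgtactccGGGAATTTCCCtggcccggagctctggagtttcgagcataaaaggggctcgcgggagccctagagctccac
Cxcl2 (chr5:90903649-90903898, plus strand): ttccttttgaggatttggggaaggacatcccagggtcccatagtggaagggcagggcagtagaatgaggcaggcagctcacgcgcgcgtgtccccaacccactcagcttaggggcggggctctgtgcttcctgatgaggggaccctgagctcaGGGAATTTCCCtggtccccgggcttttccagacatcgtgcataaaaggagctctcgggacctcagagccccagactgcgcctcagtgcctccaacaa
Cxcl3 (chr5:90785851-90786100, plus strand): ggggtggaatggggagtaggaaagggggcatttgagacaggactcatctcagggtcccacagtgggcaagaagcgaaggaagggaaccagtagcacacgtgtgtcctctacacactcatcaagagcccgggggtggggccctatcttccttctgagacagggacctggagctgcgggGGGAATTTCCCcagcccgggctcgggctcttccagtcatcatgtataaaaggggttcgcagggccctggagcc
Cxcl9 (chr5:92328080-92328329, minus strand): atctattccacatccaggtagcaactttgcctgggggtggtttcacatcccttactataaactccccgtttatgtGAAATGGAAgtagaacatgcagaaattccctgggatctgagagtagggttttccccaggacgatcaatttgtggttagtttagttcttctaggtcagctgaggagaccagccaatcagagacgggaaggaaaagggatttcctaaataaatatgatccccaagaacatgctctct
Cxcl10 (chr5:92348890-92349139, minus strand): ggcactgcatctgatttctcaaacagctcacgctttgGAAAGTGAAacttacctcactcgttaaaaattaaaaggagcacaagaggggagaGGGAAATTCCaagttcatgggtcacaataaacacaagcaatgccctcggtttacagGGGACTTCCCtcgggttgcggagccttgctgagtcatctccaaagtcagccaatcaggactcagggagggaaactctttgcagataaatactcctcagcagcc

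In Cxcl1, Cxcl2 and Cxcl3 the capitals are a pair of overlapping NF-kB consensus matches on opposite strands, which together span bases -71 to -61, -97 to -87 and -73 to -63 before the start. The Cxcl10 window held NF-kB consensus matches at -159 to -150 and at -103 to -94, and an interferon response match at -213 to -205. The Cxcl9 window held an interferon response match at -175 to -167 and no NF-kB consensus letters. Among 32851 promoters in the RefSeq table, 3.9% held the NF-kB consensus and 7.13% the interferon response core. Of the 38 member symbols, 27 had a promoter in that table. The NF-kB consensus was in 6 of them (Ccl20, Ccl9, Cxcl1, Cxcl10, Cxcl2 and Cxcl3) and the interferon response core in 6, which share Cxcl10 (Ccl1, Ccl19, Ccl3, Cxcl10, Cxcl14 and Cxcl9). The interferon-gamma type motif TTCNNNGAA, on both strands, was in Ccl17 and Cxcl14 and in 7.02% of all promoters. TATAAA on the strand of the gene was in 9 member symbols and in 7.59% of all promoters. The letters of the motifs were set with these sequences in view, after a longer form of the interferon motif and a related NF-kB form had been tried, and a match describes the sequence and is not evidence of a bound site.

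Of the 44 members, 28 had enough counts to be tested, among 17318 genes tested in all. Of these 28, 20 lay above and 8 below 0 in log2 fold change, at a median of 0.78 and a range of -2.01 to 4.84, while the median of all genes tested was -0.01. The absolute log2 fold change was over 1 in 42.9% of the tested members and in 3.2% of all genes tested, with 11 members above 1 and 1 below -1. No member passed an adjusted p of 0.05 in the edgeR quasi-likelihood test, in which 0.0173% of all genes were called, and the smallest adjusted p among members was 0.65. At an unadjusted p under 0.05 in edgeR, 6 members were higher in cKO (Cxcl9, Cxcl16, Cxcl10, Ccl2, Ccl5 and Ccl4; 3.38% of all genes) and 1 was lower (Xcl1; 1.95% of all genes). DESeq2 called 1 member, Ccl4, higher in cKO, where it called 0.387% of all genes higher, and limma-voom called none. Every cKO library was above every control in 2 members, Ccl4 and Cxcl16, against 5.73% of all genes, and no member had every cKO library below every control, against 4.81% of all genes. In the authors' deposited table Ccl4 was the 1 member among the 79 genes with an adjusted p under 0.05.

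**Figure D1:**
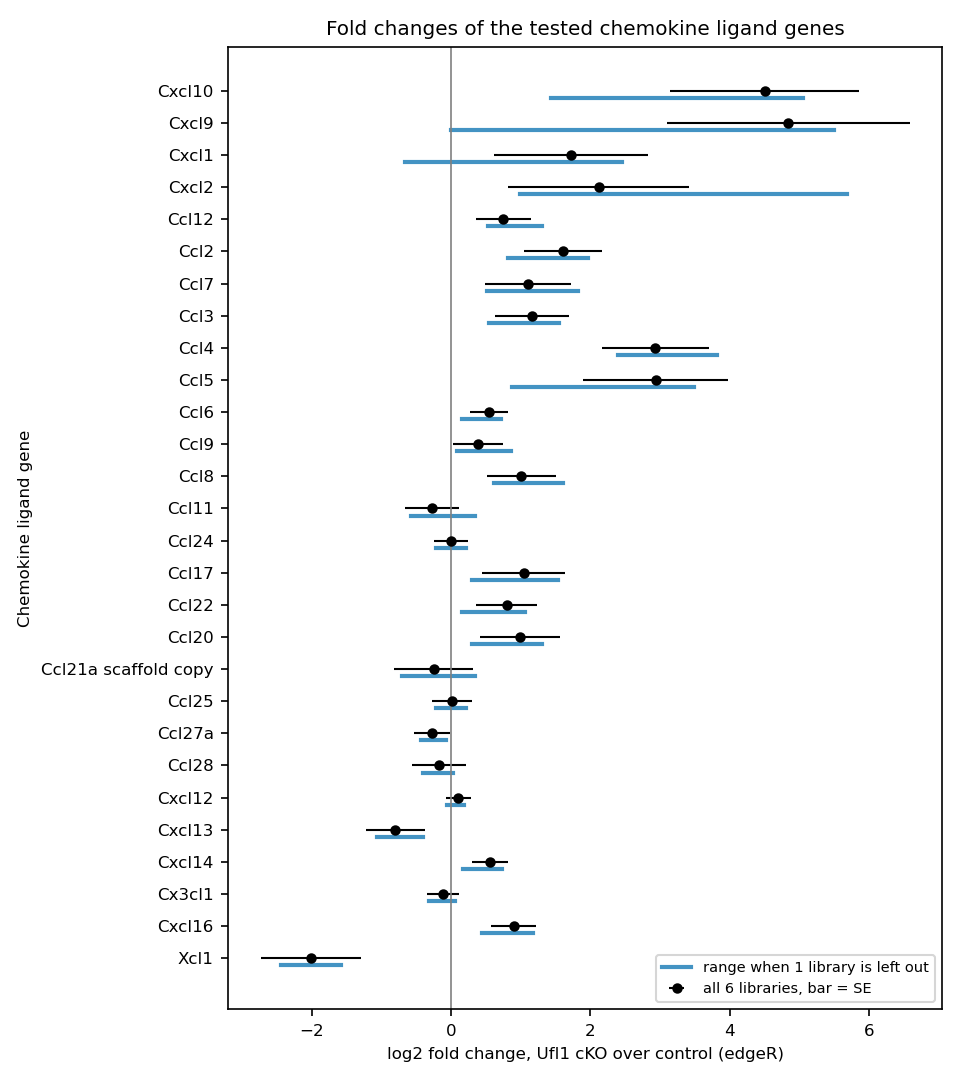
Log2 fold change (Ufl1 cKO over control) of the 28 tested chemokine ligand genes, with the standard error from edgeR (black) and the range over fits that leave out 1 library each (blue). Most genes lie to the right of 0 with a median of 0.78, and for Cxcl9 the range reaches 0 when cKO 3 is left out.

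The 3 cKO libraries did not share one pattern. Of the 28 tested members, cKO 1 held the highest value of 9 members, cKO 3 of another 9 and cKO 2 of none, and the 3 controls held the highest value of 4, 3 and 3. Over all genes tested these shares were 13.8%, 13.0% and 9.86% for cKO 1, cKO 3 and cKO 2, against 23.8%, 27.1% and 12.5% for control 1 to 3. Members highest in cKO 1 were Ccl20, Ccl3, Ccl4, Ccl6, Ccl8, Ccl9, Cxcl1, Cxcl14 and Cxcl2. Members highest in cKO 3 were Ccl12, Ccl17, Ccl2, Ccl22, Ccl5, Ccl7, Cxcl10, Cxcl16 and Cxcl9. Control 2 held the lowest value of 19 of the 28 tested members, and of 26.9% of all genes tested. The 5 fibroblast markers summed to 15466.6, 15948.6 and 14987.2 CPM in cKO 1 to 3, against 18863.2, 6893.1 and 12332.9 CPM in control 1 to 3, so control 2 was lowest there too. It was highest for the 5 keratinocyte markers, with 9067.8 to 12392.2 CPM in cKO, against 6060.4, 14000.1 and 8091.3 CPM in control 1 to 3. Mast cell, lymphatic, blood vessel, fibroblast and keratinocyte markers had median log2 fold changes of 0.26, 0.12, 0.11, 0.20 and 0.23, with none of these genes called by edgeR or DESeq2 and none at 0 in every library. The lymphatic list includes Ccl21a, itself a member, whose tested scaffold copy was at -0.25. The part of tissue makeup in the low values of control 2 was not tested.

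The median log2 deviation of the tested members from the control mean was 0.80, 0.15 and 0.21 in cKO 1 to 3, against 0.51, -0.43 and 0.07 in control 1 to 3. Control 1 thus lay above cKO 2 and cKO 3 on this measure, and the groups overlapped. Leaving out cKO 1 gave a median log2 fold change of 0.24 and leaving out cKO 3 gave 0.48, whereas it was 1.06 without cKO 2, 1.03 without control 1, 0.57 without control 2 and 0.72 without control 3. Genes were filtered anew in each of these fits, so the medians cover 28 to 31 members and not always the same ones. The summed level of all members was 989.0, 636.9 and 1189.9 CPM in cKO 1 to 3, against 754.8, 452.7 and 631.9 CPM in control 1 to 3. Cxcl12, Cxcl14 and Ccl8 together made up 58.6%, 60.8% and 40.7% of that sum in the cKO libraries, against 57.4%, 59.5% and 63.0% in the controls.

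**Figure D2:**
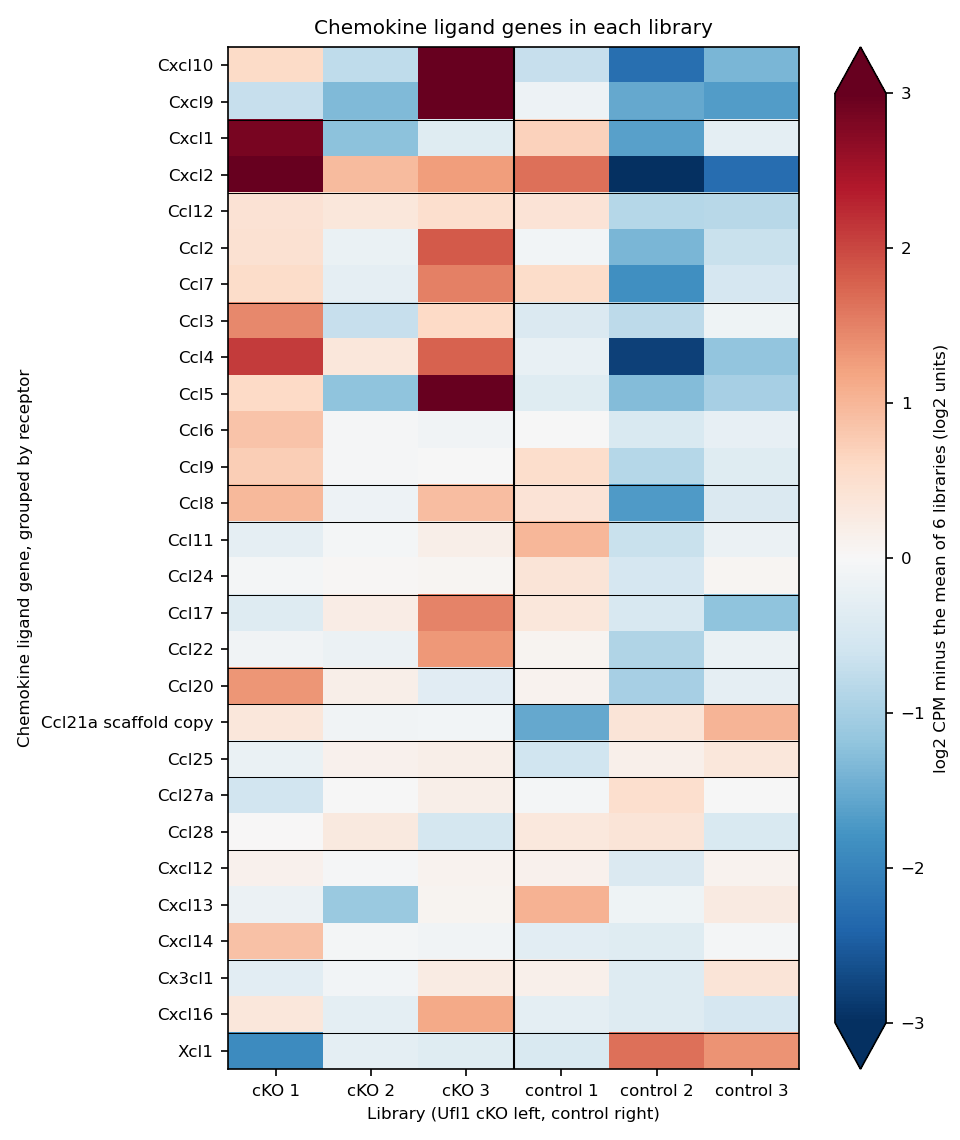
Level of each tested chemokine ligand gene in every library, as log2 CPM less the mean of that gene in all 6 libraries (colour, ending at 3 log2 units either way), with cKO libraries left of controls and genes ordered by receptor group. High values of the CXCR2 ligands fall in cKO 1 and those of the CXCR3 ligands in cKO 3, while control 2 is low for most genes.

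CXCR3 ligands are made in response to interferon-gamma and draw in activated T and NK cells. Cxcl9 (chromosome 5, 92321347 to 92328079, minus strand, mm10) was at 3.51, 2.22 and 238.8 CPM in cKO 1 to 3, against 5.07, 1.91 and 1.70 CPM in control 1 to 3. Its neighbour Cxcl10 (chromosome 5, 92346638 to 92348889, minus strand) was at 5.02, 1.94 and 79.9 CPM in cKO 1 to 3, against 2.03, 0.619 and 1.23 CPM in control 1 to 3. Both were far above every other library in cKO 3, which held 97.7% of the summed cKO level of Cxcl9 and 92.0% of that of Cxcl10, and the groups overlapped for both. The log2 fold change was 4.84 (SE 1.74) for Cxcl9 and 4.50 (SE 1.36) for Cxcl10, with adjusted p of 0.857 and 0.782 in edgeR. Exact permutation tests, which cannot go below 0.1 with 3 libraries against 3, gave p = 0.5 for Cxcl9 and p = 0.2 for Cxcl10. Without cKO 3 the log2 fold change was 0.00 for Cxcl9 and 1.43 for Cxcl10. Part of the Cxcl10 exons (133 bases, 5.91%) overlaps Art3 on the opposite strand, and whether counting used strand is not stated in the material at hand. Art3 had 1205 to 1710 counts per library, against 12 to 1526 for Cxcl10.

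Interferon-stimulated genes and lymphocyte markers were highest in the same library. The summed level of 10 listed interferon-stimulated genes was 154.1, 73.2 and 521.3 CPM in cKO 1 to 3, against 105.1, 47.6 and 75.8 CPM in control 1 to 3, and the log2 fold change was positive in all 10, at a median of 1.49. None of the 10 was called by edgeR, 7 had an unadjusted p under 0.05 there, and DESeq2 called 1, Oas2. The interferon-gamma gene Ifng was at 1.57 CPM in cKO 3 and at most 0.0596 CPM in any other library, and Ifnb1 had no count in any library. The T cell markers summed to 41.9, 39.1 and 83.0 CPM in cKO 1 to 3, against 46.1, 46.7 and 48.8 CPM in control 1 to 3; 8 of the 9 were tested, 6 of them had a positive log2 fold change, and none was at 0 in every library. The NK and cytotoxic markers summed to 2.90, 2.61 and 16.6 CPM in cKO 1 to 3, against 6.08, 6.29 and 5.48 CPM in control 1 to 3, with 3 of 5 tested and none at 0 in every library. The receptor gene Cxcr3 was at 2.06, 1.39 and 4.40 CPM in the cKO libraries, against 2.45, 0.928 and 1.89 CPM in the controls, with a log2 fold change of 0.58 (SE 0.52). In whole tissue, a change in the number of cells of a type and a change in RNA per cell cannot be told apart. The part of T and NK cells in the Cxcl9 and Cxcl10 values was not tested.

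CXCR2 ligands, which attract neutrophils, were highest in cKO 1. Cxcl2 (chromosome 5, 90903871 to 90905938, plus strand) was at 29.6, 5.77 and 7.18 CPM in cKO 1 to 3, against 9.42, 0 and 0.52 CPM in control 1 to 3. Cxcl1 (chromosome 5, 90891241 to 90893115, plus strand) was at 9.20, 0.444 and 0.890 CPM in the cKO libraries, against 1.97, 0.309 and 0.945 CPM in the controls. For both genes cKO 1 was the highest library and control 1 the highest control, and control 1 lay above cKO 2 and cKO 3. The log2 fold change was 2.12 (SE 1.30) for Cxcl2 and 1.72 (SE 1.10) for Cxcl1, both with an adjusted p of 0.981 in edgeR. Leaving out cKO 1 gave 0.99 for Cxcl2 and -0.66 for Cxcl1, and leaving out control 1 gave 5.68 for Cxcl2 and 2.45 for Cxcl1. DESeq2 gave no adjusted p for Cxcl2.

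Another pair of CXCR2 ligands, Cxcl5 and Cxcl3, did not pass the main filter for testing but were clearly counted in cKO 1. Cxcl5, a product of keratinocytes and other epithelia, had 447, 3 and 12 counts in cKO 1 to 3, against 8, 0 and 6 counts in control 1 to 3. Cxcl3 had 62, 8 and 9 counts in the cKO libraries, against 14, 0 and 1 counts in the controls. Their values are given although untested because cKO 1 stood out, and this choice was made after the counts were seen. Cxcl3 shares 3.51% of its 50-base words with Cxcl2, and Cxcl2 shares 5.84% with Cxcl3, so a small part of their reads could be assigned to either. Together the CXCR2 ligands summed to 67.2, 6.83 and 9.17 CPM in cKO 1 to 3, against 12.7, 0.309 and 1.80 CPM in control 1 to 3.

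Neutrophil markers and stress keratins were also highest in cKO 1. The 9 neutrophil markers, which include the receptor gene Cxcr2, summed to 418.1, 44.2 and 69.8 CPM in cKO 1 to 3, against 80.6, 7.84 and 16.4 CPM in control 1 to 3. In the cKO libraries most of this sum came from S100a8 and S100a9. S100a8 was at 186.3, 15.9 and 27.5 CPM in cKO 1 to 3, against 38.0, 1.55 and 4.02 CPM in control 1 to 3. S100a9 was at 166.1, 20.3 and 26.6 CPM in the cKO libraries, against 30.9, 1.24 and 3.87 CPM in the controls. Of the 6 tested markers, 5 had a positive log2 fold change and Mpo was negative at -3.55, which DESeq2 called lower. Ly6g had at most 2 counts and Elane at most 6 counts in any library, and no marker was at 0 in all of them. Cxcr2 was at 20.0, 2.50 and 4.77 CPM in the cKO libraries, against 1.85, 1.44 and 2.17 CPM in the controls, so every cKO library was above every control. Its log2 fold change was 2.31 (SE 0.72), at an adjusted p of 0.811 (edgeR) and 0.0676 (DESeq2), and it was 0.99 without cKO 1. The stress keratins Krt6a, Krt6b, Krt16 and Krt17, induced in wounded or inflamed epidermis, summed to 1417.0, 386.0 and 398.5 CPM in the cKO libraries, against 171.5, 228.1 and 209.1 CPM in the controls, with all 4 above every control in every cKO library and Krt16 called by DESeq2. The part of neutrophils in the CXCR2 ligand values was not tested.

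**Figure D3:**
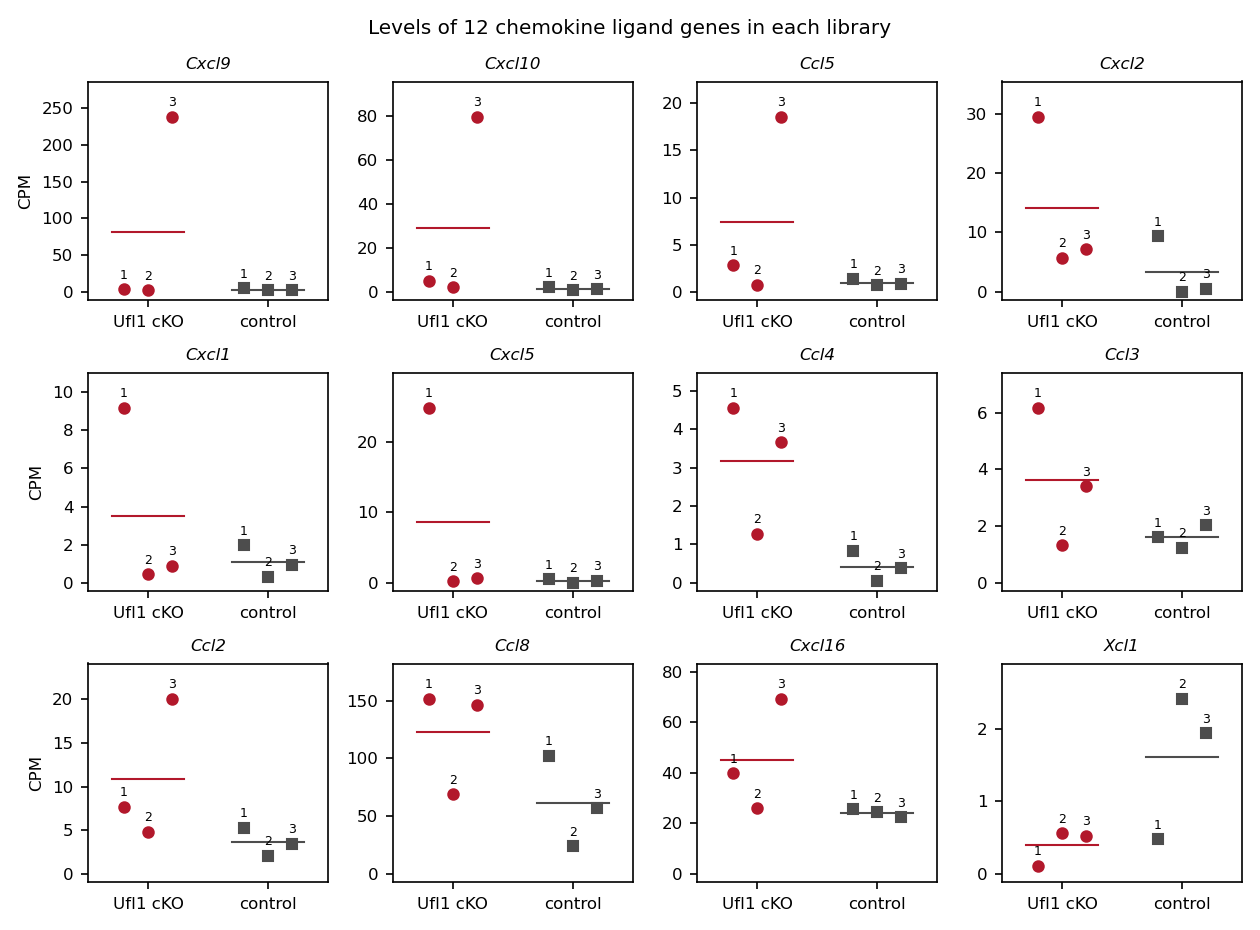
CPM of 12 chemokine ligand genes on linear axes, Ufl1 cKO left of control, with 1 numbered point per library and a line at the group mean. Cxcl9 and Cxcl10 have 1 high point each, in cKO 3 (238.8 and 79.9 CPM), while for Ccl4 all 3 cKO points lie above the controls.

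The CC ligands encoded beside Ccl5 on chromosome 11 act on monocytes, macrophages, T cells and, in mice, neutrophils. Ccl4 (chromosome 11, 83662584 to 83664683, plus strand), also called MIP-1 beta, had 82, 23 and 70 counts in cKO 1 to 3, against 14, 1 and 8 counts in control 1 to 3. These are 4.57, 1.28 and 3.67 CPM in the cKO libraries, against 0.835, 0.0516 and 0.378 CPM in the controls, with means of 3.17 ± 1.70 CPM in cKO and 0.422 ± 0.394 CPM in control (SD, n = 3 each). Every cKO library was above every control, with cKO 2 the lowest of the 3. The log2 fold change was 2.93 (SE 0.77), at an adjusted p of 0.65 (edgeR) and 0.0312 (DESeq2), and p = 0.1 in the exact permutation test. It was between 2.40 and 3.81 when any 1 library was left out in edgeR. The DESeq2 call held without cKO 2 (adjusted p = 0.00963) and without control 1 (adjusted p = 0.00153), and was lost without any 1 of the other 4 libraries. The authors' deposited table lists a log2 fold change of 2.93 and an adjusted p of 0.0222 for Ccl4.

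Ccl3 (MIP-1 alpha), next to Ccl4 on the chromosome, was at 6.19, 1.33 and 3.40 CPM in cKO 1 to 3, against 1.61, 1.24 and 2.03 CPM in control 1 to 3. Here cKO 2 lay within the controls, and the log2 fold change was 1.16 (SE 0.53; adjusted p = 0.941 in edgeR), or 0.54 without cKO 1. Ccl5 (RANTES), known as a product of activated T cells and of interferon-exposed cells, was at 2.79, 0.722 and 18.6 CPM in the cKO libraries, against 1.37, 0.670 and 0.851 CPM in the controls. It followed the CXCR3 ligands in standing out in cKO 3, with a log2 fold change of 2.94 (SE 1.04; adjusted p = 0.857 in edgeR) and 0.87 without cKO 3.

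Ccl6 and Ccl9, CC ligands of myeloid cells found in rodents, were among the most abundant members. Ccl6 was at 87.9, 47.1 and 44.9 CPM in cKO 1 to 3, against 47.8, 35.2 and 40.9 CPM in control 1 to 3. Ccl9 was at 74.3, 43.6 and 44.4 CPM in the cKO libraries, against 64.5, 24.5 and 34.9 CPM in the controls. In both genes cKO 1 was highest and control 2 lowest, and the groups overlapped. The log2 fold changes were 0.54 (SE 0.27) for Ccl6 and 0.39 (SE 0.36) for Ccl9, and were 0.16 for Ccl6 and 0.09 for Ccl9 without cKO 1.

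The receptor gene Ccr1 also had its highest value in cKO 1. It was at 21.0, 6.33 and 7.23 CPM in the cKO libraries, against 7.34, 1.91 and 3.12 CPM in the controls, with a log2 fold change of 1.49 (SE 0.61) and 0.73 without cKO 1. It did not pass an adjusted p of 0.05 in edgeR or DESeq2, and control 1 lay above cKO 2 and cKO 3.

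CCR2 ligands recruit monocytes from the blood. Ccl2 (MCP-1; chromosome 11, 82035571 to 82037453, plus strand) was at 7.69, 4.83 and 20.1 CPM in cKO 1 to 3, against 5.25, 2.06 and 3.45 CPM in control 1 to 3. Ccl7 (MCP-3) was at 17.7, 9.94 and 34.5 CPM in the cKO libraries, against 17.5, 3.25 and 8.46 CPM in the controls. For Ccl2 only cKO 2 lay among the controls, below control 1, and for Ccl7 control 1 was nearly level with cKO 1. The log2 fold change was 1.60 (SE 0.56; adjusted p = 0.857 in edgeR) for Ccl2 and 1.10 (SE 0.62; adjusted p = 0.978 in edgeR) for Ccl7, and 0.81 and 0.51 without cKO 3. Ccl12, a mouse MCP, ranged from 4.61 to 5.13 CPM in cKO and from 1.96 to 4.83 CPM in control, with a log2 fold change of 0.75 (SE 0.39). The receptor gene Ccr2 had a log2 fold change of 0.88 (SE 0.46).

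Ccl8, which in mice acts on CCR8-bearing T cells, had the highest level per length of all members. It was at 152.0, 69.1 and 146.7 CPM in cKO 1 to 3, against 102.5, 23.6 and 57.0 CPM in control 1 to 3. Control 1 lay above cKO 2, so the groups overlapped, and the log2 fold change was 1.01 (SE 0.50; adjusted p = 0.953 in edgeR), or 0.62 without control 2 and 1.60 without control 1. The monocyte and macrophage markers, all 9 of them tested and positive in log2 fold change, at a median of 0.48, summed to 1604.2, 1256.1 and 1522.8 CPM in cKO 1 to 3, against 1613.3, 719.1 and 1321.4 CPM in control 1 to 3, with none at 0. Control 2 was lowest both for these markers and for Ccl8, Ccl7, Ccl2 and Ccl9. Ly6c2, a marker of inflammatory monocytes in mice, was the member of that list called by DESeq2, with a log2 fold change of 2.95. The part of macrophage number in the ligand values was not tested.

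**Figure D4:**
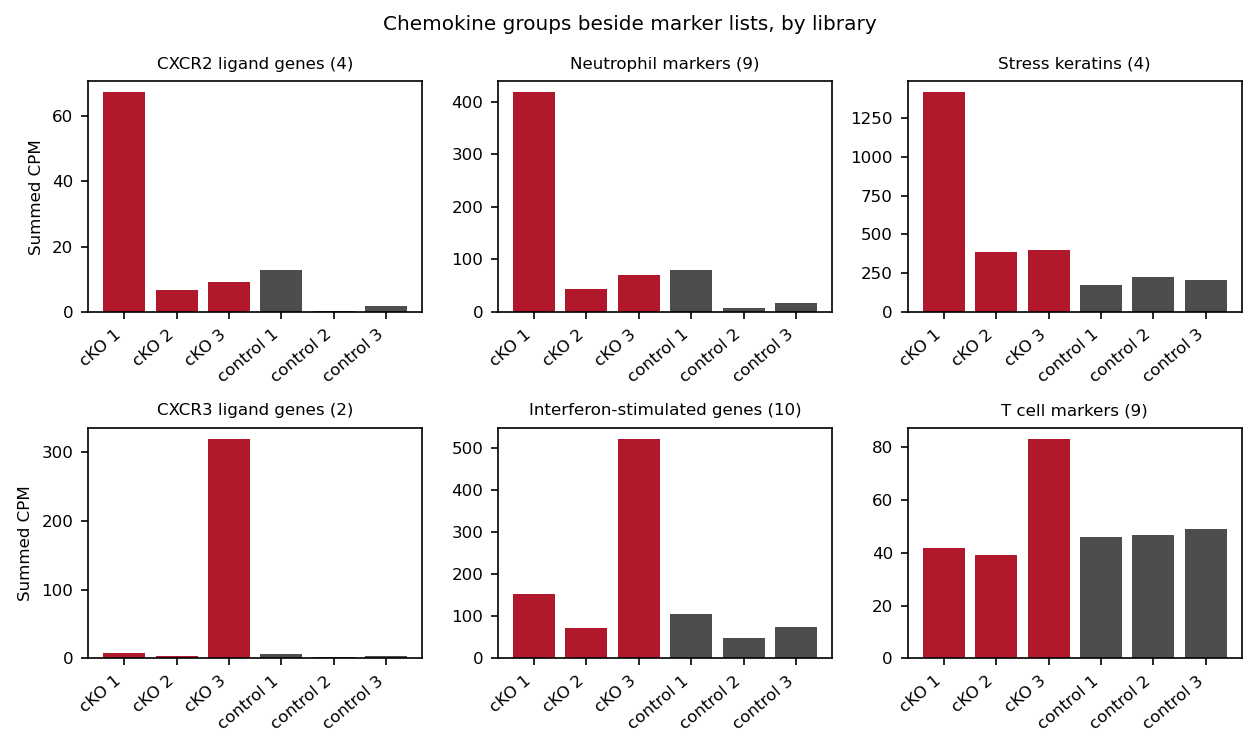
Summed CPM per library (bars) of the CXCR2 and CXCR3 ligand genes beside neutrophil markers, stress keratins, interferon-stimulated genes and T cell markers, Ufl1 cKO left of control. CXCR3 ligands (318.7 CPM) and interferon-stimulated genes (521.3 CPM) are highest in cKO 3, and CXCR2 ligands (67.2 CPM) and neutrophil markers (418.1 CPM) in cKO 1. Most of the neutrophil marker sum in cKO 1 is S100a8 and S100a9.

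Among the ligands of CCR3, CCR4 and CCR6, the CCR3 ligands had log2 fold changes near 0 and the others lay above it without a call. Ccl11 and Ccl24, the eotaxins that attract eosinophils, ranged from 16.6 to 22.8 CPM in cKO and from 12.7 to 40.4 CPM in control for Ccl11, and from 8.03 to 8.69 CPM in cKO and from 5.88 to 10.9 CPM in control for Ccl24. Their log2 fold changes were -0.27 (SE 0.39) and 0.00 (SE 0.25), and that of Ccl11 was 0.35 without control 1. Ccl17, a ligand of CCR4 made by dendritic cells and keratinocytes, was at 1.67, 2.61 and 6.39 CPM in cKO 1 to 3, against 2.80, 1.55 and 0.898 CPM in control 1 to 3, with a log2 fold change of 1.04 (SE 0.59) that was 0.30 without cKO 3. Ccl22, the other CCR4 ligand, had a log2 fold change of 0.80 (SE 0.44), which was 0.15 without cKO 3. Both had their highest value in cKO 3, where the Langerhans and dendritic markers, all 7 tested and 6 positive, summed to 865.5 CPM, against 379.6 and 392.7 CPM in cKO 1 and cKO 2 and 417.6 to 443.4 CPM in the controls, with none at 0. Most of that sum was H2-Ab1, a class II gene of antigen-presenting cells, at 277.3, 309.1 and 728.4 CPM in cKO 1 to 3, against 351.9, 300.8 and 346.7 CPM in control 1 to 3. The Langerhans cell marker Cd207 was highest in control 2, at 19.1 CPM, against 15.9 CPM in cKO 3, with a log2 fold change of -0.53 (SE 0.31). The part of dendritic cells in these values was not tested. Ccl20, the ligand of CCR6, ranged from 0.629 to 2.23 CPM in cKO and from 0.361 to 0.895 CPM in control, with a log2 fold change of 0.99 (SE 0.58), or 0.30 without cKO 1.

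The homeostatic CXC ligands did not share one pattern. Cxcl12, a product of fibroblasts and endothelium that acts on CXCR4, was at 250.0, 224.3 and 247.2 CPM in cKO 1 to 3, against 253.1, 170.4 and 248.6 CPM in control 1 to 3. Control 2 alone was lower, and the log2 fold change was 0.10 (SE 0.18). Cxcl14, made by keratinocytes and fibroblasts, was at 178.1, 93.5 and 90.3 CPM in the cKO libraries, against 77.8, 75.4 and 92.6 CPM in the controls. Here cKO 1 stood apart and cKO 3 lay below control 3, and the log2 fold change of 0.56 (SE 0.26) was 0.17 without cKO 1. Cxcl13, a B cell attractant, ranged from 1.94 to 4.61 CPM in cKO and from 3.92 to 9.07 CPM in control, with the highest value in control 1 and overlapping groups. Its log2 fold change was -0.80 (SE 0.42), or -0.41 without control 1.

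The membrane-bound ligands Cx3cl1 (fractalkine) and Cxcl16 differed from each other. Cx3cl1 was at 27.2, 31.8 and 40.4 CPM in cKO 1 to 3, against 37.8, 25.9 and 44.5 CPM in control 1 to 3, with overlapping groups and a log2 fold change of -0.12 (SE 0.23). Cxcl16, which binds CXCR6, was at 39.9, 25.9 and 69.4 CPM in the cKO libraries, against 25.6, 24.3 and 22.4 CPM in the controls. Every cKO library was above every control for Cxcl16, cKO 2 only narrowly. The log2 fold change was 0.90 (SE 0.32; adjusted p = 0.857 in edgeR), with p = 0.1 in the exact permutation test, and 0.45 without cKO 3. Zmynd15 on the opposite strand overlaps 18.3% of the Cxcl16 exon bases and had 47 to 115 counts per library. The receptor genes Cxcr6 and Cx3cr1 had log2 fold changes of 0.69 (SE 0.38) and 0.63 (SE 0.38).

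Xcl1 (lymphotactin), made by activated CD8+ T cells, NK cells and dendritic epidermal T cells, was the member furthest below 0. It was at 0.111, 0.555 and 0.524 CPM in cKO 1 to 3, against 0.477, 2.42 and 1.94 CPM in control 1 to 3. Control 1 lay below cKO 2 and cKO 3, so the groups overlapped. The log2 fold change was -2.01 (SE 0.72; adjusted p = 0.857 in edgeR), between -2.44 and -1.58 when any 1 library was left out. The T cell markers moved in both directions, 6 of the 8 tested above 0 and 2 below. Trdc of the gamma-delta T cell receptor was lower than every control in every cKO library, with a log2 fold change of -0.72 (SE 0.28), and Trbc2 of the alpha-beta receptor was higher than every control in every cKO library, with 0.78 (SE 0.20). Neither was called by edgeR or DESeq2, and the part of T cells in the Xcl1 value was not tested. Gm20743 on the opposite strand overlaps 18.7% of the Xcl1 exon bases and had 4 to 17 counts per library. Xcl1 itself had 2, 10 and 10 counts in cKO 1 to 3, against 8, 47 and 41 counts in control 1 to 3. The receptor gene Xcr1 had a log2 fold change of 0.58 (SE 0.51).

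Ligands of CCR7, CCR9 and CCR10 were close to 0 or could not be assigned to 1 locus. The testable Ccl21a row is a scaffold copy, with 2.28 to 3.12 CPM in cKO and 0.775 to 5.10 CPM in control and a log2 fold change of -0.25 (SE 0.57). Ccl21 guides dendritic cells into lymphatic vessels, and it has several annotated copies. On chromosome 4, Ccl21a shares 30.8% of its 50-base words with Ccl21b and Ccl21b 71.7% with Ccl21a. Sharing with the scaffold copies, including the one tested, was not analysed here, so values of single copies are uncertain. Ccl25, Ccl27a and Ccl28 had log2 fold changes of 0.01 (SE 0.29), -0.27 (SE 0.26) and -0.17 (SE 0.39). Elavl1 on the opposite strand overlaps 2.74% of the Ccl25 exon bases. It had 944 to 1391 counts per library, against 59 to 144 for Ccl25. Ccl27a, the keratinocyte ligand of CCR10, ranged from 7.80 to 13.1 CPM in cKO and from 11.2 to 16.5 CPM in control. It shares 8.63% of its words with Ccl27b, and sharing with its own scaffold copies was not analysed here.

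The remaining members were too low to judge. Of the 16 untested, 4 had no count in any library (Cxcl15, Ccl19 scaffold copy, Ccl21c scaffold copy b and Ccl27a scaffold copy b) and 7 had 1 to 10 counts at most (Ccl19, Ccl21a on chromosome 4, Ccl21b and its scaffold copy, Ccl26, Ccl27b and Cxcl17). Apart from Cxcl5 and Cxcl3, 3 exceeded 10 counts in at least 1 library. Ccl1 had 0, 4 and 38 counts in cKO 1 to 3, against 1, 5 and 1 counts in control 1 to 3. A scaffold copy of Ccl27a had 2, 36 and 1 counts in the cKO libraries, against 1, 4 and 1 counts in the controls, and one of Ccl21c had 10, 6 and 10 counts in the cKO libraries, against 28, 8 and 2 counts in the controls. Some tested members were low as well, with 6 to 165 counts per library for Cxcl1, 7 to 40 for Ccl20 and 2 to 47 for Xcl1. None of them reached 1 CPM in 3 libraries, the limit of an alternative filter.

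Levels between genes were set side by side per length, as the deposited FPKM. Ccl8 averaged 238.3 ± 90.1 FPKM in cKO and 118.6 ± 77.5 FPKM in control (SD, n = 3 each), the first in the order of both groups, followed by Cxcl14 with 65.5 ± 26.8 FPKM in cKO and 44.5 ± 5.23 FPKM in control. The ranges of Ccl8 and Cxcl14 did not overlap in cKO and did in control. Cxcl12, Ccl6, Ccl11, Ccl7 and Ccl9 had means of 17.6 to 33.2 FPKM in cKO and 12.1 to 27.2 FPKM in control, and many of their ranges overlapped within a group. In cKO, Ccl6 (24.9 to 48.4 FPKM) and Cxcl12 (27.2 to 30.3 FPKM) lay above Ccl11 (15.2 to 21.0 FPKM) and Ccl9 (14.2 to 24.1 FPKM) in every library, while Ccl7 (12.3 to 42.9 FPKM) overlapped all 4. Cxcl9 was the fifth in cKO, at 26.9 ± 45.0 FPKM, and in place 22 in control, at 0.952 ± 0.625 FPKM. Cxcl10 was in place 10 in cKO, at 12.8 ± 19.6 FPKM, and in place 26 in control, at 0.57 ± 0.314 FPKM. Both places in the cKO order rest on cKO 3, with 79.0 FPKM for Cxcl9 and 35.4 FPKM for Cxcl10.

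**Figure D5:**
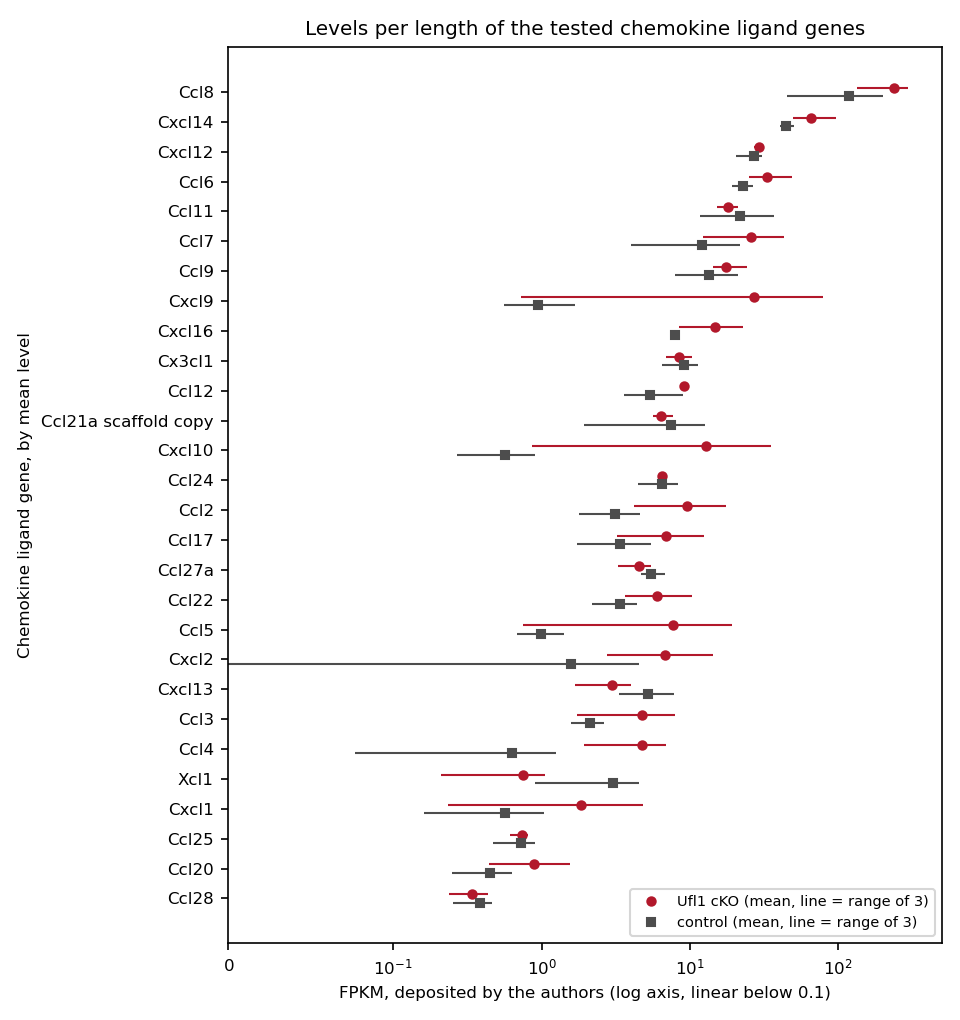
Deposited FPKM of the 28 tested chemokine ligand genes on a log axis that is linear below 0.1, ordered by level, with the mean and the range over the 3 libraries of Ufl1 cKO (above) and control (below). Ccl8 leads both groups (238.3 and 118.6 FPKM) and Cxcl9 has the widest cKO range, 0.731 to 79.0 FPKM.

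Chemokine genes lie in clusters, and some neighbours had their highest value in the same library. On chromosome 5, Cxcl5, Cxcl3, Cxcl15, Cxcl1 and Cxcl2 span 147 kb (90759360 to 90905938), and each of them with counts was highest in cKO 1. Cxcl9 and Cxcl10 span 27.5 kb, both highest in cKO 3. On chromosome 11, Ccl5, Ccl9, Ccl6, Ccl3 and Ccl4 span 139 kb (83525778 to 83664683), with Ccl5 highest in cKO 3 and the others in cKO 1. Of the 6 members in the 270 kb around Ccl2 (82035571 to 82305690), Ccl2, Ccl7, Ccl12 and Ccl1 were highest in cKO 3, Ccl8 in cKO 1 and Ccl11 in control 1. On chromosome 8, Ccl22, Cx3cl1 and Ccl17 span 66.4 kb (94745590 to 94812036), with Cx3cl1, between the others, highest in control 3 and Ccl22 and Ccl17 highest in cKO 3. How often neighbouring genes in general share their highest library was not tested.

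Of 18 chemokine receptor genes listed, 14 were tested, 12 had a positive log2 fold change, and the median was 0.62. None was called by edgeR or DESeq2, and Cxcr2 and Ccr1 had an unadjusted p under 0.05 in edgeR, both higher in cKO. Of the 5 genes listed as atypical receptors, the Ackr genes encode receptors that take up chemokines without signalling through G proteins. The median of the 5 was 0.06, with Ackr1 at 0.06, Ackr2 at 0.11, Ackr3 at -0.09, Ackr4 at -0.01 and Ccrl2 at 0.85 (SE 0.49).

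Of 16 cytokine genes that induce chemokines, 8 were tested and 6 were positive, at a median of 0.24 and no call in edgeR or DESeq2. The negative ones were Il1a, at a log2 fold change of -0.46 (SE 0.26), and Il1f8, at -0.15 (SE 0.23). Il1b was at 63.3, 15.5 and 28.8 CPM in cKO 1 to 3, against 23.4, 0.361 and 3.21 CPM in control 1 to 3. Control 1 lay above cKO 2, and the log2 fold change was 2.01 (SE 1.09), or 1.31 without cKO 1 and 4.30 without control 1. Il33 was at 80.6, 25.5 and 34.8 CPM in the cKO libraries, against 32.3, 35.9 and 23.8 CPM in the controls, with a log2 fold change of 0.61 that was -0.02 without cKO 1. Il6 was at 3.46 CPM in cKO 1 and at most 0.298 CPM in any other library. The gene of IL-36 gamma, listed as Il1f9, had a log2 fold change of 0.41 (SE 0.17). The listed NF-kB target genes were positive in 9 of 10, at a median of 0.31, and none was called by either tool. They ran from Relb at -0.07 and Nfkbia at 0.09 to Bcl3 at 0.78 and Vcam1 at 0.91, with Tnfaip3 at 0.33 and Icam1 at 0.45.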

How the data were processed

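Total RNA from ear skin was extracted with TRIzol, and libraries were built with a NEBNext Ultra kit, per the labels' protocols. The submitters' processing notes name HISAT2, HTSeq and mm10; versions and the strand setting are not given in the sources used here. Gene counts were deposited by the authors as whole numbers, per the file headers and values. The same table holds the authors' FPKM, the authors' normalized mean count per group (a signal value), and, from the authors' own comparison, log2 fold changes, p-values and adjusted p-values, per the file headers. No row lacked a gene name.

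Counts were filtered with filterByExpr, which left 17318 genes (99.83% to 99.86% of the counts of each library), scaled by TMM and tested by quasi-likelihood in edgeR 4.0.16 (R 4.3.3), with robust estimates and no covariates. Adjusted p-values are Benjamini-Hochberg over all genes tested, and 0.05 was the threshold. Each SE is the log2 fold change over the square root of F. The log2 deviations used a prior count of 2. Alternatives were RLE scaling, library size scaling only, other count filters, DESeq2 1.42.0, limma-voom (limma 3.58.1), fits without robust estimates or with a block for the replicate number, and leaving out each library. The fits were also run on simulated counts with changes planted in 200 genes, each shifted alike in every cKO library. A high value in a single library was not simulated, so that run does not bear on such members. Depth, at 17256339 to 20776539 counts, sets the counting error of low genes.

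Members and lists were chosen with earlier results of these data known. Every member is named, and per-library values are given for tested members that were called by either tool, had groups without overlap, were among the 12 with the largest absolute log2 fold change or the 8 with the highest level. For Il36a, Il36b and Il36g the older symbols in the table were used. All 44 members had the same start and end in the GENCODE vM21 annotation. Promoter sequences are from RefSeq (GRCm38.p6). The values of a receptor gene in the receptor list are not reported here.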

Additional observations from a re-analysis of the deposited data

How the results depend on the processing

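edgeR called 3 genes in all, 25 with no filter beyond 1 count, 12 with the replicate block, and 0 to 4 when 1 library was left out; DESeq2 called 91 and limma-voom 0. No chemokine ligand was called in any edgeR or limma-voom setting. DESeq2 called 1 (Ccl4), and, in alternatives chosen after seeing the data, 5 without cKO 2 (Cxcl16, Cxcl10, Ccl2, Ccl5 and Ccl4), 4 without control 1 (Ccl8, Ccl12, Ccl4 and Xcl1) and 0 without any 1 of the others. The cause was not tested. The members' median of 0.78 was between 0.74 and 0.85 under other settings, which moved the median of all genes to between -0.03 and 0.01, and between 0.24 and 1.06 when 1 library was left out. These medians cover the 25 to 40 members that passed the filter of each fit. Same-numbered libraries had r of 0.216, -0.043 and -0.038 for their deviations, against -0.161 to 0.185 for pairs of unlike number. The pair numbered 1 was thus the highest and the others were near 0, and the numbers were not taken to pair samples. With the replicate block, 13 tested members had an unadjusted p under 0.05 in edgeR, against 7 without it. Over all genes, 602 were higher and 247 lower at that p with the block, against 585 and 338 without it.

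Of 731 log2 fold changes over 52 genes, 700 kept direction and side of the threshold, 28 changed sign and 3, all Ccl4 in DESeq2, came to pass it. This tally holds the DESeq2 fits that leave out 1 library for Ccl4 only. The other members called in those fits, named above, are therefore not counted in it. Signs changed under other tools for Ccl24 (0.05 in limma-voom, 0.03 with the replicate block), Ccl25 (-0.01 with library size only), the Ccl21a scaffold copy (0.04 in limma-voom) and Ackr4 (0.01 in limma-voom, 0.00 with the replicate block). Leaving out 1 library gave -0.06 to 0.19 for Cxcl12, 0.00 to 5.49 for Cxcl9, -0.31 to 0.06 for Cx3cl1, -0.57 to 0.35 for Ccl11, -0.21 to 0.21 for Ccl24, -0.22 to 0.21 for Ccl25, -0.71 to 0.34 for the Ccl21a scaffold copy, -0.66 to 2.45 for Cxcl1, -0.41 to 0.03 for Ccl28, -0.10 to 0.28 for Ackr1, -0.02 to 0.19 for Ackr2, -0.27 to 0.10 for Ackr3, -0.12 to 0.13 for Ackr4, -0.14 to 0.98 for Tnf, -0.46 to 0.03 for Il1f8 and -0.02 to 0.91 for Il33. The Ccl4 result rests on 1 to 82 counts per library, and 16 members had too few counts for a test.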
